A study of Solanum lycopersicum with 9 samples.

Results

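Tomato roots (Solanum lycopersicum, wild-type line 76R) that had grown into a buried patch of field soil were compared 53 h after the patch received ammonium at 65 μg NH4+-N per g soil (called high NH4+) or water alone (0 μg). Each treatment had 3 arrays, 1 per biological replicate, and all plants grew in pots of the same field soil, with arbuscular mycorrhizal fungi in their roots. Roots that received 6.5 μg (called low NH4+, 3 arrays) entered the fit to measure the spread and are used only to say where the high dose differed from the low dose. The Affymetrix Tomato GeneChip reads each transcript with a probe set, a group of short probes. A probe set was included when its signal reached 100 on at least 1 of the 6 high NH4+ and water arrays, which held for 6609 of the 10038 tomato probe sets. Nearest to this limit, 3 included probe sets had highest signals of 99.99 (at the limit as the study rounds it on the natural log scale), 100.04 and 100.11, and 3 that were left out had 99.92, 99.90 and 99.69. Whole roots were sampled, so fewer cells of a type and less RNA per cell cannot be told apart.

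Roots take up NH4+ through ammonium transporters and join it to glutamate with glutamine synthetase, and glutamate synthase returns the amino group to the glutamate pool. Soil microbes turn NH4+ into nitrate, which roots reduce to nitrite and then, with nitrite reductase, back to NH4+. Both forms of N act on root growth and on many other pathways. The question of the comparison was which root transcripts differ when roots meet an NH4+-rich patch.

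The median log2 signal over all tomato probe sets ranged from 7.28 to 7.59 on the water arrays and from 7.23 to 7.40 on the high NH4+ arrays. The 3′ over 5′ signal of the actin control, a measure of RNA integrity, ranged from 0.43 to 0.85 on the log2 scale in water and from 0.76 to 1.17 in high NH4+ roots, so the ranges overlapped. For the GAPDH control it ranged from 0.27 to 0.72 in water and from -0.01 to 0.45 in high NH4+ roots. The mean correlation of an array with the others of its group was 0.934 to 0.946 in water and 0.963 to 0.970 in high NH4+ roots, so the controls differed more among themselves. The low NH4+ arrays had actin values of 1.78, 3.00 and 0.88 and median log2 signals of 7.15, 6.87 and 7.14. For their part in the spread used by the fit, each was left out, and a fit without them is given further below. Their part in differences between doses was not tested beyond leaving arrays out and rescaling. On the first principal component of the 6 arrays, which held 52.7% of the variance, the water arrays lay at 29.74, 8.18 and 34.49 and the high NH4+ arrays at -26.92, -30.28 and -15.21. Water replicate 2 was thus the control nearest to the treated roots. In what follows, controls 1 to 3 are the water replicates and NH4+ arrays 1 to 3 the high NH4+ replicates. The root genes FER, AMT1, NRT2.1 and PT1 were all present, with log2 signals between 7.31 and 10.99 on the 6 arrays. Of the fruit markers, E8, 2A11 and PG2 did not reach a signal of 100 on any array. However, 2 of the 8 fruit marker probe sets did reach it. The log2 of their summed signal was 8.55, 8.32 and 7.74 in water and 7.39, 7.96 and 7.83 in high NH4+ roots, and neither was called.

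High NH4+ changed 435 of the 6609 probe sets, 182 higher and 253 lower, at a false discovery rate of 10% (limma, all 9 arrays, adjusted over 6670 probe sets with a signal of 100 on at least 1 of the 9 arrays). This was 6.52% of the probe sets tested, 2.73% higher and 3.79% lower. Counts in the gene lists below are to be read beside these shares. Among the 435 calls, 116 were at least 2-fold higher and 121 at least 2-fold lower. The median log2 fold change over all included probe sets was -0.08. The split between directions depended on scaling, since centring each array on its median gave 222 higher and 136 lower, and quantile normalization 351 and 342. Of 177 probe sets that reached a signal of 100 only on high NH4+ arrays, 28 were called, all higher. Of 418 that reached it only on water arrays, 52 were called, all lower. Such probe sets were included through 1 group alone, which ties their calls to a direction. Single arrays had a large weight: dropping control 1 left 11 calls and dropping control 3 left 69, whereas dropping control 2 raised the number to 726. Dropping NH4+ array 1 or 2 left 6 calls each, NH4+ array 3 left 285, and the first low NH4+ array left 282.

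**Figure D1:**
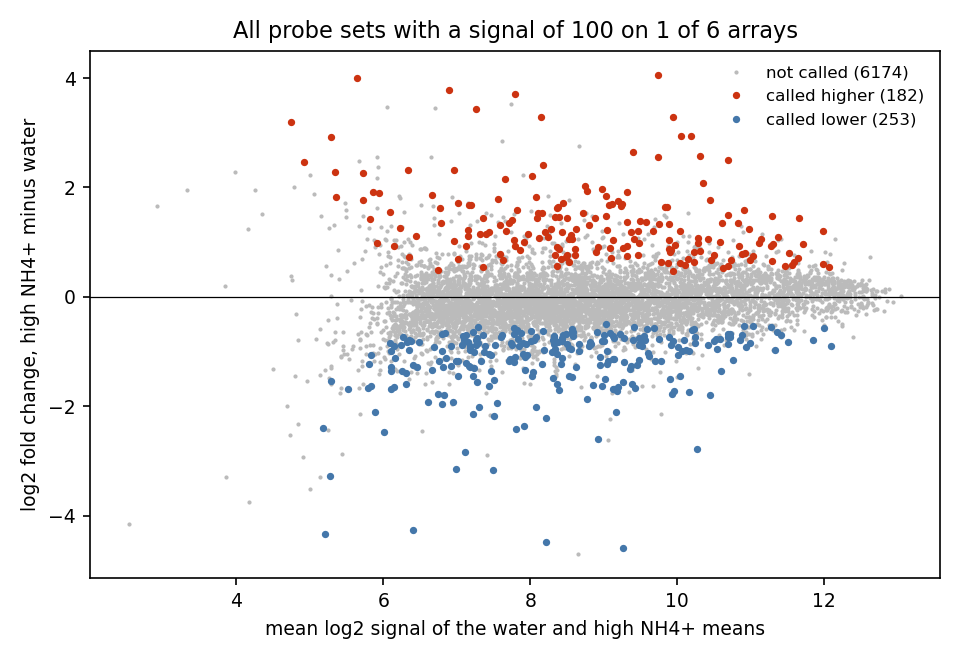
Each point is 1 of the 6609 included probe sets, with the mean log2 signal of the water and high NH4+ groups on the horizontal axis and the log2 fold change, high NH4+ minus water, on the vertical axis. The 182 probe sets called higher and the 253 called lower are spread over most of the signal range, and the largest changes among them are 4.06 and -4.59.

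The glutamine synthetase gene gts1 rose most among genes with a name. Its log2 signal was 7.61, 7.81 and 7.70 in water and 11.13, 12.06 and 12.11 in high NH4+ roots. All treated arrays were more than 3 log2 units above all controls. The log2 fold change was 4.06 (SE 0.26, adjusted p = 0.000357). A second gts1 probe set, which was under a signal of 100 on all water arrays, rose by 2.93 (adjusted p = 0.0013). Only 5 of the 435 calls held whichever of the 9 arrays was left out, and these 2 probe sets were among them, with adjusted p of at most 0.00534 and 0.0154. With signals under 100 set to 100, however, the second probe set changed by 0.17 (adjusted p = 0.374). gts1 also exceeded its level at the low dose, by 1.40 (adjusted p = 0.0922).

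Other steps that bring inorganic N into amino acids rose with it. Nitrite reductase Nii had log2 signals of 9.66, 8.76 and 9.50 in water and 11.15, 11.58 and 11.45 in high NH4+ roots, a rise of 2.09 (SE 0.31, adjusted p = 0.0411). The ammonium transporter AMT1-2 went from 7.78, 7.53 and 7.90 to 9.48, 9.86 and 9.96 (log2 fold change 2.03, SE 0.38, adjusted p = 0.0467). In neither gene did the groups overlap, and the treated arrays lay close together. Absence of overlap held for all 182 probe sets called higher and all 253 called lower, so it sets no call apart. A second glutamine synthetase, GS2, rose by 1.69 (adjusted p = 0.0448), and NADH-dependent glutamate synthase, which closes the cycle with glutamine synthetase, by 0.81 (adjusted p = 0.0773). The nitrate transporter NRT2.1 rose by 1.38 (adjusted p = 0.0856), with log2 signals of 9.47, 8.77 and 8.17 in water and 9.72, 10.65 and 10.20 in high NH4+ roots, so its highest control came close to its lowest treated array. For glutamate dehydrogenase gdh1, which can release or fix NH4+, the log2 fold change was -0.15 (SE 0.23, adjusted p = 0.726).

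The other ammonium transporter, AMT1, moved the opposite way to AMT1-2. It fell by 0.85 on the log2 scale (SE 0.21, adjusted p = 0.0773), from 10.99, 10.45 and 10.54 in water to 9.56, 9.74 and 10.14 in high NH4+ roots. The groups did not overlap. An ANR1-like MADS-box gene fell by 1.71 (adjusted p = 0.0671), from 9.88, 9.45 and 8.39 to 7.60, 7.56 and 7.43; its relative ANR1 in Arabidopsis acts in the growth of lateral roots in nitrate patches. Control replicate 3 was low for this gene but remained above all treated roots.

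Enzymes that use the new amino groups were split. Aspartate aminotransferase, which passes amino groups from glutamate to aspartate, rose on both of its probe sets, by 1.20 and 1.12 (adjusted p = 0.0524 and 0.0431), and both were also higher than in low NH4+ roots, by 1.23 and 1.54 (adjusted p = 0.0922 and 0.0664). A dicarboxylate transporter rose by 0.89 (adjusted p = 0.0856). Among the N genes, 3 probe sets for enzymes of amino acid breakdown fell: alpha-aminoadipic semialdehyde synthase of lysine breakdown (-1.18, adjusted p = 0.0703), homogentisate dioxygenase of tyrosine breakdown (-0.98, adjusted p = 0.0981) and gamma-aminobutyrate transaminase GABA-TP1 (-0.88, adjusted p = 0.0636). A second isozyme, GABA-TP2, rose by 1.35 (adjusted p = 0.0743). Chorismate synthase CS2, on the way to aromatic amino acids, fell by 0.79 (adjusted p = 0.0704). After median centring homogentisate dioxygenase (adjusted p = 0.131), GABA-TP1 (0.102) and CS2 (0.141) were no longer called. Of the 20 tested members of the list of amino acid and polyamine metabolism, 1 rose and 2 fell, near the share over all probe sets. Alanine aminotransferase (0.78, adjusted p = 0.106), tryptophan synthase (0.61, adjusted p = 0.123), an O-acetylserine lyase (0.40, adjusted p = 0.198), the peptide transporter OPT1 (-0.81, adjusted p = 0.106), nitrilase (-1.01, adjusted p = 0.106) and a cystathionine beta-synthase domain gene (-1.10, adjusted p = 0.113) did not pass.

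Of the 21 probe sets that the study groups as N genes, 9 rose, 6 fell and 6 did not pass. These genes had been chosen on the same arrays, which makes their count a description only. After median centring 9 rose and 2 fell. With the second gts1 probe set, 16 were called, of which 2 were left when NH4+ array 1 or 2 was dropped, 4 when control 1 was, 7 when control 3 was, 12 with the first low NH4+ array dropped and 11 with NH4+ array 3 dropped. Among the treated roots, replicate 1 had the lowest level of 8 of the 10 N probe sets that rose, gts1, Nii, AMT1-2 and NRT2.1 among them.

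Some genes of cell division rose in high NH4+ roots. The annotation holds 11 tested cyclins, cyclin-dependent kinases and inhibitors, of which 4 rose and none fell, with a median log2 fold change of 0.42 beside -0.08 over all included probe sets. Cyclins switch on the kinases that carry a cell through its cycle, and the B-type kinases are plant enzymes made around mitosis. CDKB1 rose by 1.25 (SE 0.21, adjusted p = 0.0431), from 7.56, 7.60 and 7.84 in water to 9.11, 8.97 and 8.65. CycA1 rose by 1.41 (adjusted p = 0.0431), CDKB2 by 1.31 (adjusted p = 0.0489) and CycA2 by 1.11 (adjusted p = 0.0655). All CycA2 signals in water were under 100, and with signals under 100 set to 100 its change was 0.35 (adjusted p = 0.329). The kinase CDKA1, which is made throughout the cycle, had a log2 fold change of 0.01 (adjusted p = 0.985), the inhibitor krp1 one of -0.37 (adjusted p = 0.419), and CYCD3, a G1 cyclin, one of 1.01 (adjusted p = 0.131, and 0.0833 after median centring).

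Other genes used at mitosis had the same pattern over the arrays, but they were chosen after their values were seen, as genes that rose. The study's own list of cell growth and division genes, most of them higher, also holds a cyclin that was lower in high NH4+ roots. cdc20, which directs cyclins to their destruction, rose by 1.79 (SE 0.28, adjusted p = 0.0431), from 6.60, 6.80 and 6.61 to 8.96, 8.49 and 7.94. UBC19, a ubiquitin-conjugating enzyme, rose by 1.83 and 1.66 on its probe sets (adjusted p = 0.0525 and 0.0431), and the alpha-tubulins TUA6 and TUA4 and the beta-tubulin TUB8, named after their Arabidopsis relatives, by 1.46, 1.35 and 0.95 (adjusted p = 0.0525, 0.0431 and 0.0781). Of these, cdc20, the second UBC19 probe set and TUA6 were also higher than in low NH4+ roots (1.54, 1.42 and 1.68, adjusted p = 0.0922 for each). All 10 cyclin, kinase, cdc20, UBC19 and tubulin probe sets called were highest on high NH4+ replicate 1 and lowest on replicate 3, while replicate 1 was the lowest treated array for most N genes. Dropping control 1, or NH4+ array 1 or 2, left none of the 10 called, and dropping control 3 left 5.

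Cell wall genes of the expansin list, whose proteins loosen the wall of a growing cell, rose in 2 of 8 members and fell in none (median 0.62). EXP2 rose by 1.68 (SE 0.39, adjusted p = 0.0671), from 6.51, 6.34 and 6.20 to 8.75, 7.92 and 7.42, and EXP5 by 0.90 (adjusted p = 0.0849). All EXP2 signals in water were under 100, so its size is uncertain, and with these set to 100 the rise was 1.38 (adjusted p = 0.0626). Xyloglucan endotransglucosylases cut and rejoin wall glucans, and of 9 tested 1 rose and 1 fell. XTH1 rose by 1.64 (adjusted p = 0.0807) and was higher than in low NH4+ roots by 2.05 (adjusted p = 0.0964), whereas XTH5 fell by 1.34 (adjusted p = 0.0804), a call that centring on the median removed. The 4 calls were lost when control 1 or 3, or NH4+ array 1 or 2, was dropped, and 2 were left when NH4+ array 3 or the first low NH4+ array was.

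Several probe sets named for sterol synthesis rose. Plants make sterols, which belong to their membranes and give rise to brassinosteroid hormones, from products of the mevalonate pathway. They were picked out after the values were seen, by names that exist only for probe sets already chosen on these arrays, so their count has no background. In all, 8 of 10 such probe sets rose and 1 fell. The sterol methyl oxidases, which strip methyl groups from the sterol ring, rose most. An SMO1-1-like gene had log2 signals of 6.59, 7.95 and 6.23 in water and 9.48, 9.11 and 8.79 in high NH4+ roots, a rise of 2.20 (SE 0.46, adjusted p = 0.0559). An SMO2-1-like gene rose by 1.94 and 1.93 on its probe sets (adjusted p = 0.0465 and 0.0431). For both genes, water replicate 2 was the highest control and still lay below every treated array.

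Earlier and later steps of the pathway were also higher. A DWF1-like gene, whose Arabidopsis relative acts on the sterol side chain, went from 9.43, 10.05 and 9.23 to 11.29, 11.43 and 11.28 (log2 fold change 1.77, SE 0.29, adjusted p = 0.0431), and by 0.96 on its second probe set (adjusted p = 0.0856). HMG-CoA synthase, an early mevalonate enzyme, rose by 1.48 (adjusted p = 0.088), a FACKEL-like sterol reductase by 1.18 (adjusted p = 0.0773) and a HYDRA1-like sterol isomerase by 0.80 (adjusted p = 0.059). A UGT80A2-like sterol glucosyltransferase, at 0.83, just missed the limit. From the isoprenoid list, HMGR (0.52, adjusted p = 0.252) and the farnesyl diphosphate synthase FPPS1 (0.68, adjusted p = 0.127), which lead to sterols, did not pass. A sterol carrier protein gene fell by 0.57 (adjusted p = 0.0912), and this call was lost after median centring, where 7 of the 10 rose. No sterol call held when control 1 or 3, or NH4+ array 1 or 2, was dropped, while 6 of 9 held with NH4+ array 3 dropped and 5 with the first low NH4+ array dropped.

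**Figure D2:**
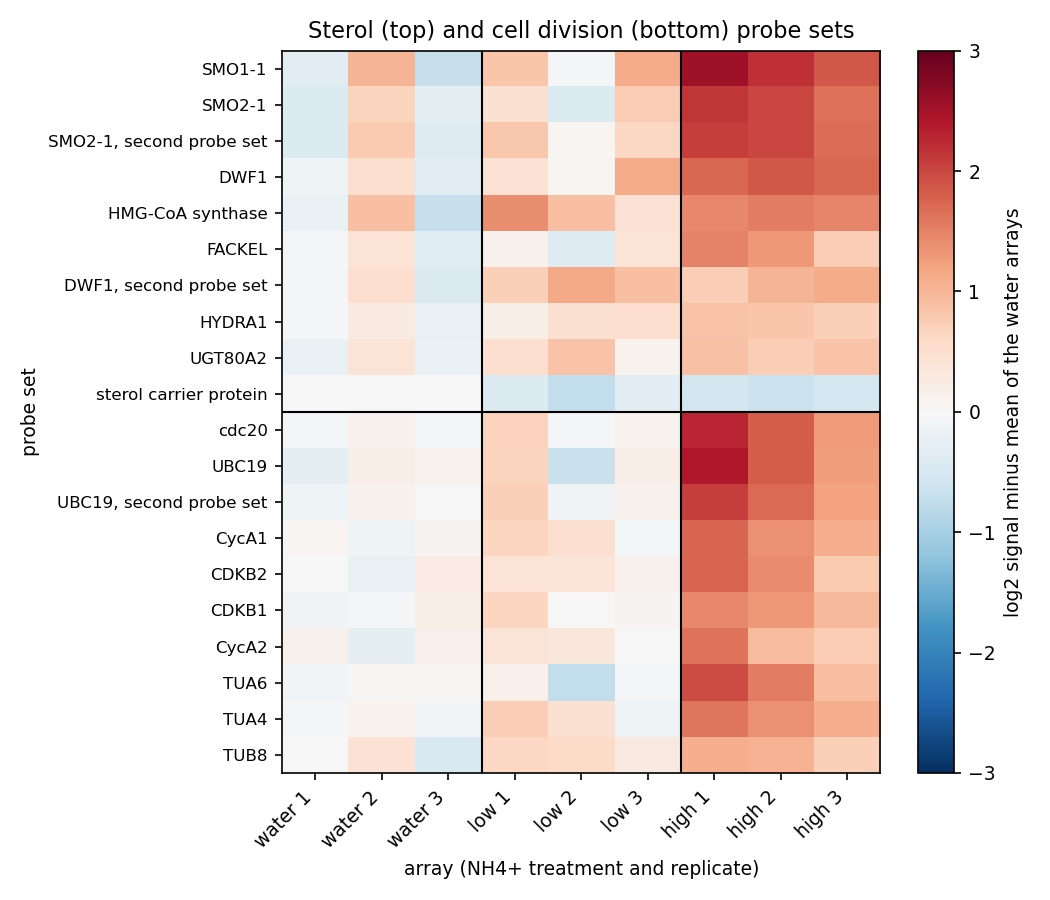
Log2 signal of 10 sterol probe sets (upper block) and 10 cell division probe sets (lower block) on the 9 arrays, as the difference from the mean of the 3 water arrays (colour scale, red higher, blue lower). The 3 high NH4+ columns are red in all rows but the sterol carrier protein, and in the lower block they are palest on replicate 3. All 10 probe sets of the lower block were chosen from those called higher, so their red colour follows from the choice. Uncalled cyclins and kinases, CDKA1 and CYCD3 among them, are not shown.

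The other genes with the largest rises had no common role. The non-symbiotic hemoglobin gene GLB1, whose relatives in other plants bind oxygen and nitric oxide, rose by 3.29 (SE 0.76, adjusted p = 0.0671). Its controls were uneven, at 7.0, 7.93 and 9.98, and its treated arrays close together, at 11.42, 11.69 and 11.66. A proteinase inhibitor gene, ARPI, rose by 2.94 (adjusted p = 0.0626), the proline-rich cell wall gene TPRP-F1 by 2.58 (adjusted p = 0.0496), a Bet v I family gene by 2.32 (adjusted p = 0.0807) and a leucine-rich repeat gene by 2.32 (adjusted p = 0.059). Both of the last named were under a signal of 100 in all water roots, and with that floor their rises were 0.85 (adjusted p = 0.102, not called) and 1.47 (adjusted p = 0.0575). yfe37 rose by 2.95 (adjusted p = 0.0981) and a probe set annotated both as pathogenesis-related protein P2 and as an NC domain gene by 2.5 (adjusted p = 0.0971). Controls again ranged widely for yfe37, at 9.27, 10.45 and 6.42 beside 11.60, 11.80 and 11.59 in high NH4+ roots. Among the 12 named genes that rose most, 1 call was left when NH4+ array 1 or 2 was dropped, 2 when control 1 was, 4 when control 3 was, 8 with NH4+ array 3 dropped and 9 with the first low NH4+ array dropped.

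Several genes of abscisic acid and water stress fell. Abscisic acid is made from carotenoids when roots dry, and it induces dehydrins and other protective proteins. Of 12 tested members of this list, 6 fell and none rose (median -1.0), and 5 fell after median centring or quantile normalization. Over all probe sets tested, 3.79% fell. The dehydrin TAS14 had log2 signals of 12.18, 10.04 and 12.44 in water and 8.11, 4.96 and 7.82 in high NH4+ roots. It fell by 4.59 (SE 0.91, adjusted p = 0.0496), more than any other probe set called. Its groups did not overlap, as for every call. NCED1, the enzyme that cleaves the carotenoid on the way to abscisic acid, fell from 8.05, 7.04 and 8.66 to 5.77, 5.74 and 6.47 (log2 fold change -1.92, SE 0.43, adjusted p = 0.0646). All its treated signals were under 100, and with these set to 100 the log2 fold change was -1.27 (adjusted p = 0.0825).

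Earlier steps of the same route were lower too. Zeaxanthin epoxidase ZEP fell by 1.45 (adjusted p = 0.0448), neoxanthin synthase NSY by 0.87 (adjusted p = 0.0912, and 0.189 after median centring) and a beta-carotene hydroxylase, from 9.24, 7.96 and 9.85 to 6.17, 6.73 and 6.90, by 2.42 (SE 0.43, adjusted p = 0.0431). The transcription factor genes CBF1, of the cold and drought response, and JA2 fell by 2.18 and 1.95 (adjusted p = 0.0915 and 0.082). Other members, among them the transcription factor gene AREB1 (-1.01, adjusted p = 0.294), LEA14 (log2 fold change near 0, adjusted p = 0.996) and FLACCA (0.06, adjusted p = 0.86), did not pass. Of the 6 calls of the list, none held when control 1 or 3, or NH4+ array 1 or 2, was dropped, 4 held with control 2 or the first low NH4+ array dropped, and 5 with NH4+ array 3 dropped.

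Some plastid isoprenoid genes fell as well. Of 15 tested isoprenoid and carotenoid genes, 3 fell and none rose (median -0.52). DXS, the first enzyme of the plastid isoprenoid pathway, fell by 1.64 (SE 0.37, adjusted p = 0.0639), from 10.22, 9.39 and 9.76 to 8.15, 7.67 and 8.65. Phytoene desaturase PDS fell by 1.05 (adjusted p = 0.0677, and 0.127 after median centring), ISPE by 0.83 (adjusted p = 0.083), and phytoene synthase PSY2 had a log2 fold change of -1.30 (adjusted p = 0.111). Photosynthesis genes, which mark shoot tissue or greened roots, moved in the same direction, but PSBR alone was called. Of 8 such probe sets 5 had a signal of 100, and CAB5, CAB6A and PETE did not. All 5 had a negative log2 fold change (median -1.29) and PSBR, of photosystem II, fell by 1.77 (adjusted p = 0.0431). PsbQ, CAB4, PSBO and PSBP did not pass (adjusted p = 0.433, 0.16, 0.206 and 0.461). The log2 of the summed signal of all 5, PSBR included, was 11.26, 10.91 and 11.47 in water and 9.89, 9.02 and 9.78 in high NH4+ roots, with no overlap. The part of these 5 in the falls of plastid and stress genes was not tested. Dropping control 1 or 3, or NH4+ array 1 or 2, left none of the 4 isoprenoid and PSBR calls.

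Of 9 tested heat shock proteins and chaperonins, which help other proteins to fold and of which many are made under stress, HSP17-6 alone fell and none rose (median -0.86). This list holds only probe sets with a platform symbol. By its own annotation, the study reports most of its differing heat shock proteins as higher in high NH4+ roots. HSP17-6 had log2 signals of 12.07, 10.75 and 12.17 in water and 9.10, 8.65 and 8.91 in high NH4+ roots, and fell by 2.78 (SE 0.49, adjusted p = 0.0431). ER-SHSP (-3.51, adjusted p = 0.152) and vis1 (-2.53, adjusted p = 0.135) did not pass. The constitutive chaperones HSC80 and Hsp90-1 had log2 fold changes of -0.10 and 0.20 (adjusted p = 0.701 and 0.564), and HSC80 turned to 0.01 after median centring. The HSP17-6 call was lost when control 1 or 3, or NH4+ array 1 or 2, was dropped (highest adjusted p 0.188).

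Signalling genes among the largest falls included an EF hand gene, whose protein class binds calcium. It had log2 signals of 9.34, 8.61 and 9.33 in water and 6.78, 6.63 and 6.81 in high NH4+ roots, and fell by 2.35 (SE 0.26, adjusted p = 0.0126). It was the only named gene that fell and stayed called whichever array was left out (highest adjusted p 0.0952). A universal stress protein gene (-2.22, adjusted p = 0.083), an AP2 domain transcription factor gene (-2.01, adjusted p = 0.0849), a plastocyanin-like gene (-2.02, adjusted p = 0.0626) and an esterase-lipase gene (-1.91, adjusted p = 0.0629) fell as well. psi14B fell by 3.17 (SE 0.72, adjusted p = 0.0664), from 8.58, 10.87 and 7.79 to 6.39, 4.97 and 6.36, on a probe set that also matches similar transcripts. The treated signals of psi14B, the AP2 gene and the esterase-lipase gene were all under 100, and with signals under 100 set to 100 the log2 fold changes were -2.43 (adjusted p = 0.0846), -1.67 (adjusted p = 0.114, not called) and -0.92 (adjusted p = 0.0398). That floor made the treated values of each gene equal, so these adjusted p-values do not measure their spread. Water replicate 2 was the lowest control for 9 of the 12 named genes that fell most, TAS14, NCED1 and HSP17-6 among them, but the highest for psi14B. Of these 12 calls, 1 was left when control 1, or NH4+ array 1 or 2, was dropped, 3 with control 3 dropped and 7 with NH4+ array 3 dropped.

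**Figure D3:**
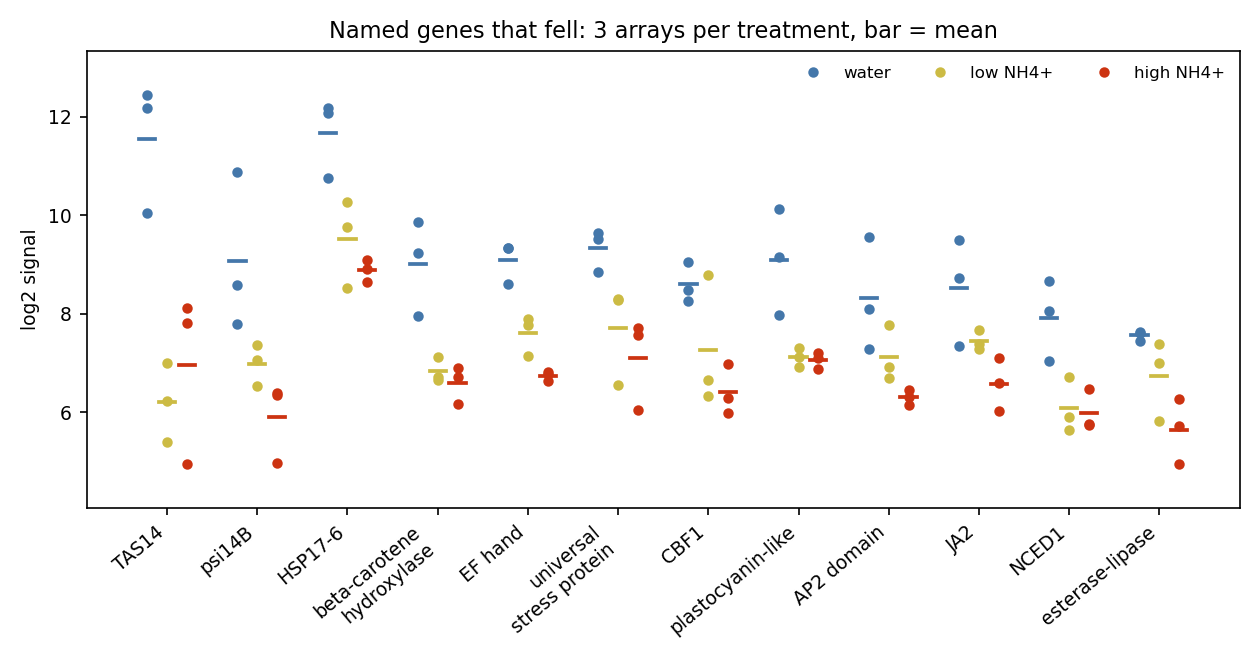
Log2 signal (vertical axis) of the 12 named genes that fell most on the 3 arrays of each treatment, with a bar at each mean. The 3 high NH4+ points of each gene lie below its 3 water points, as the rule that chose these genes required. Water replicates spread most for TAS14 and psi14B.

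Single genes of carbon metabolism changed in both directions. PPCK1, a kinase that activates the carbon-fixing enzyme phosphoenolpyruvate carboxylase, had nearly equal controls at 10.05, 10.01 and 10.00 and treated values of 8.46, 8.01 and 8.65 (log2 fold change -1.65, SE 0.20, adjusted p = 0.0219). Sucrose phosphate synthase SPS fell by 1.31 (adjusted p = 0.0431) and the ribonuclease gene rnalx, which tomato induces when phosphate is short, by 1.69 (adjusted p = 0.0467). PPCK1 was the 1 member that fell of 12 tested in malate and pyruvate metabolism, where GPI1 and the mitochondrial malate dehydrogenase mMDH1 rose by 0.64 and 0.65 (adjusted p = 0.059 and 0.0671, the latter lost after median centring), and SPS was the 1 call of 19 in sugar metabolism. The phosphate transporter PT1 (-0.32, adjusted p = 0.35) did not pass. Of 19 transcription factors, 3 fell and none rose (median -0.32): the G-box factor GBF12 by 1.18 (adjusted p = 0.0431), the MYB gene THM27 by 1.15 (adjusted p = 0.049) and GRAS10 by 1.1 (adjusted p = 0.049). FER, the regulator of iron uptake, fell by 0.86 against water (adjusted p = 0.0931) but was higher than in low NH4+ roots by 1.27 (adjusted p = 0.0922). The low NH4+ arrays had median log2 signals of 7.15, 6.87 and 7.14, below those of all high NH4+ arrays. The part of this in the FER difference between doses was not tested. Of the arrays dropped in turn, NH4+ array 1 alone removed the PPCK1 call (adjusted p = 0.106). SPS, rnalx and the 3 transcription factors were lost when NH4+ array 1 or 2 was dropped, 4 of these 5 when control 1 was and 4 when control 3 was.

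In lists of this size the 6.52% called over all probe sets amounts to few genes, so the next counts are given as values only. Of 12 pathogenesis-related proteins (median 0.27) and 24 antioxidant and glutathione enzymes (median -0.03), none was called. The same held for 11 jasmonate and oxylipin genes (median -0.04) and 12 ribosomal proteins and translation factors (median 0.22). All these lists hold only probe sets with a platform symbol. By its own annotation, the study reports most of its differing pathogen response and glutathione genes as higher in water roots. Of 30 ethylene synthesis and signalling genes, 2 fell (median -0.31), the ethylene-forming oxidase ACO4 by 0.97 (adjusted p = 0.049) and the EIN3-like factor EIL3 by 0.84 (adjusted p = 0.0693), and centring removed both. The comparison of high with low NH4+ called 60 of the 6670 probe sets tested, or 0.900%, and 8 of the 65 probe sets named by the rule or picked by name, lists aside, were among them. These differences rest on the low NH4+ arrays, of which 2 had the highest 3′ over 5′ actin signals of all. In the same comparison, 1 of the 65 was called after median centring or quantile normalization, and dropping 1 array gave between 0 and 25. XTH1 and FER, which come from the lists, are not covered by these counts.

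**Figure D4:**
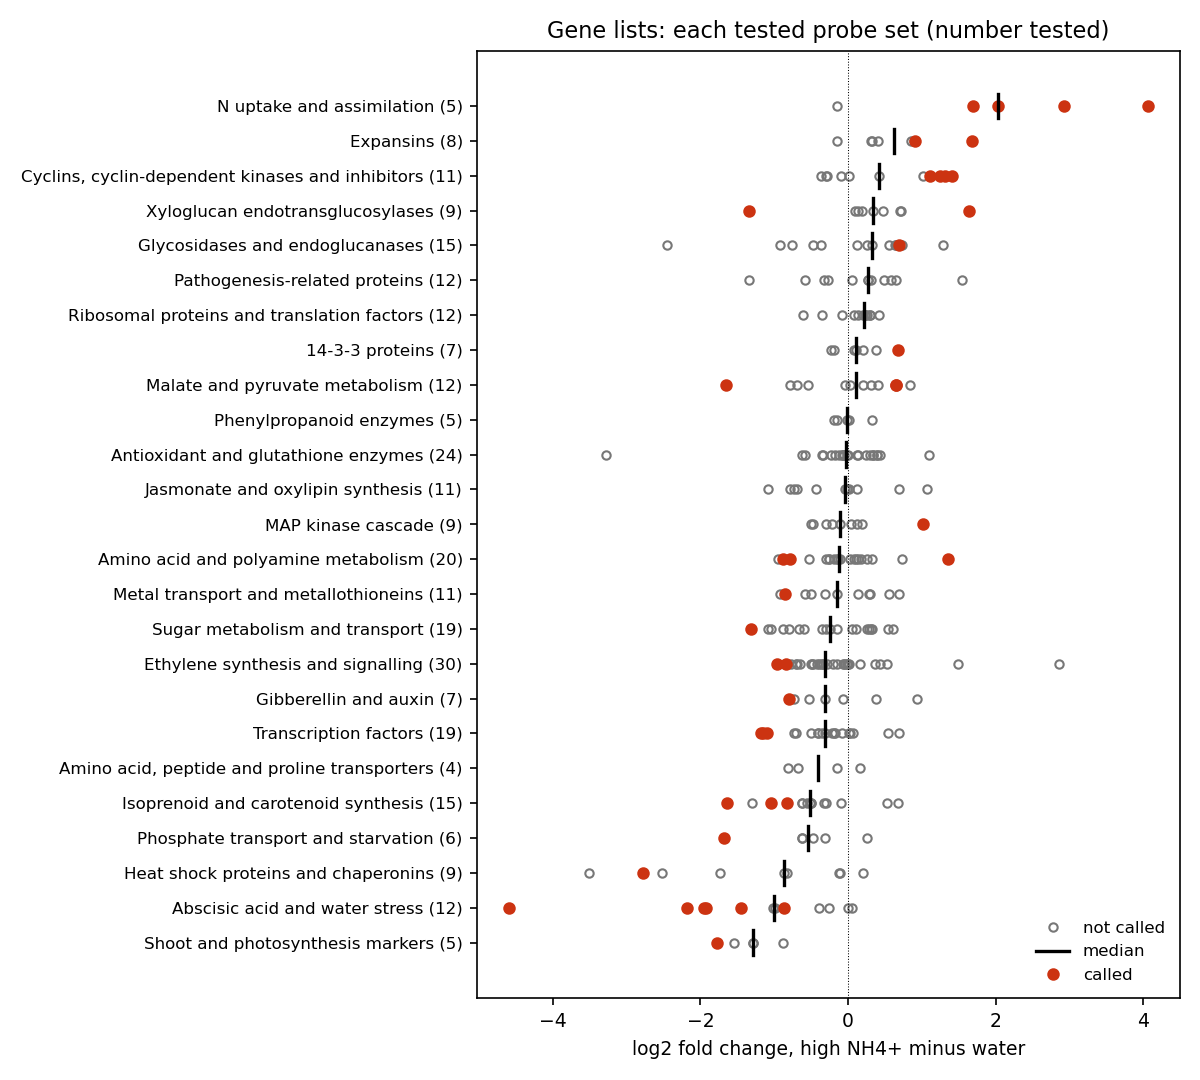
Log2 fold change, high NH4+ minus water (horizontal axis), of each tested probe set in the gene lists with at least 3 tested members, with called probe sets filled in red, others as open circles and a black bar at the median. N uptake and assimilation has the highest median (2.03) and the photosynthesis markers the lowest (-1.29). The N list holds both gts1 probe sets, AMT1-2, GS2 and gdh1, so gts1 counts more than once. AMT1, which fell, and NRT2.1 and Nii, which rose, are not in it.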

How the data were processed

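The authors used Affymetrix Expression Console to make MAS5 signals, scaled per array, and deposited their natural log; software versions were not stated in what was read here. Dividing the deposited natural log values by the log of 2 gave log2 signals. Arrays were grouped by their own titles. limma 3.58.1 (R 4.3.3) was fitted to 9 arrays in 3 groups, over 6670 tomato probe sets, and p-values were adjusted by the Benjamini-Hochberg method. The limit for a call was a 10% false discovery rate. The fit was tested on simulated data. MAS5 signals under 100 are noisy, and 3 arrays per group limit the precision. Setting signals under 100 to 100 makes a group wholly under 100 uniform, so adjusted p-values after this step do not measure its spread. The array gives no read depth.

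Members and lists were chosen with earlier results of these data known. The title patterns planned for lists could not be used, because the platform annotation gives symbols only (667 of 6609 probe sets), so 28 lists of symbols were written. Other names came from the study's annotation of probe sets it had chosen on these arrays; names after Arabidopsis genes are by similarity. TAS14, CBF1, JA2 and HSP17-6 are named as in the platform annotation and the study's full annotation, but a shorter list in the study pairs their probe sets with other names. That list also pairs the probe set of the universal stress protein gene with another name. Named genes were the 12 higher and 12 lower with a name and the largest change whose direction was equal in all 9 treated-control pairs, the lowest adjusted p of each list, and the study's N genes; those named beyond this were chosen after their values were seen. Probe sets ending in _s, _x or _a share probes with related transcripts. Not analysed here were soil, isotope and PCR data. Alternatives covered filters, scaling, low signals, tests, arrays in the fit, a replicate block, the threshold and each array left out. Plots were drawn with Python 3.11.15 and matplotlib 3.10.9.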

Additional observations from a re-analysis of the deposited data

How the results depend on the processing

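Over the 6609 probe sets, 435 calls (182 higher, 253 lower), with 41 calls in the gene lists and 8 of the probe sets picked by name also called between high and low NH4+, became 108 (60 and 48), 19 and 1 with no filter on low signals, 99 (59 and 40), 19 and 0 at a false discovery rate of 5%, and 139 (67 and 72), 14 and 0 with the methods' unmoderated test. Quantile normalization gave 693 calls, 351 of them higher, and median centring 136 lower, with 1 high against low call in each. A floor at a signal of 100 gave 281 higher, and limma-trend 15 high against low calls. The 6 arrays alone, limma-trend and the other filters gave 449 to 579 calls, of which 393 to 435 were among the 435. Without both water replicate 3 and low NH4+ replicate 2, an alternative chosen after seeing the data, 142 were called (79 and 63), with 16 in lists and 1 between the doses. Leaving out 1 array gave 6 to 726 calls, 3 to 276 higher, 2 to 450 lower, 2 to 67 in lists and 0 to 25 between the doses. The cause of these shifts was not tested.

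With the replicate number as a block the fit called 205 (94 and 111), 26 in lists and 1 between the doses, and 190 of the 205 were called without the block. Of 89 named calls 36 were not called with it, among them NRT2.1, AMT1, NADH-dependent glutamate synthase, GLB1, SMO1-1, HMG-CoA synthase, FACKEL, HYDRA1, EXP5, XTH1, CBF1 and DXS. The pots stood in a block design, and the methods used block as a term for soil and isotope data, but the labels do not tie array replicate numbers to blocks, and whether they mark them is unknown here. Same-numbered water and high NH4+ arrays had correlations of their deviations of -0.22, 0.08 and -0.11. For arrays with different numbers the correlations ranged from -0.27 to 0.33. As the deviations are taken within groups of 3 arrays, these values cannot decide whether the numbers mark blocks.

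Among 133 named probe sets no call changed direction under median centring or quantile normalization. Uncalled CDKC turned positive after quantile normalization (0.0093), after median centring (0.0135) and without both arrays named above (0.0046), and HSC80 after median centring (0.0127). Leaving out 1 array moved CDKC between -0.22 and 0.0046 and CDKA1 between -0.11 and 0.0943.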

Other observations

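Of probe sets named for the pentose phosphate pathway, which supplies reductant, and for sulphate reduction, 5 rose in high NH4+ roots. They were noticed after the values were seen, under names the study gave to probe sets chosen on these arrays. The enzyme 6-phosphogluconate dehydrogenase, which makes NADPH in the pentose phosphate pathway, had log2 signals of 10.64, 10.60 and 10.64 in water and 11.49, 11.63 and 11.69 in high NH4+ roots, a rise of 0.98 (SE 0.16, adjusted p = 0.0431), and its second probe set rose by 0.93 (adjusted p = 0.0411). The controls were nearly equal. A glucose-6-phosphate dehydrogenase gene, G6PD3-like, rose by 1.04 (adjusted p = 0.0984). Adenylyl-sulfate reductase rose by 1.38 (SE 0.32, adjusted p = 0.0672), from 8.09, 8.61 and 9.19 to 9.64, 10.53 and 9.85, and sulfite reductase by 0.62 (adjusted p = 0.0904). After median centring 1 of these 2 sulphur genes was called, and neither of 2 tested sulphate transporters passed the test. The study names sulphate added with the NH4+ as another possible influence on sulphur genes, while judging soil sulphur to be probably sufficient. The part of sulphate in these rises was not tested. Of these 5 calls, none was left when control 1, or NH4+ array 1 or 2, was dropped, 3 when control 3 or the first low NH4+ array was, and 2 when NH4+ array 3 was.

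Some of the largest changes were in probe sets with no name in the annotation used here. One rose from 3.90, 6.13 and 4.96 in water to 8.99, 8.66 and 8.69 in high NH4+ roots (log2 fold change 3.78, SE 0.70, adjusted p = 0.0448), and exceeded its low NH4+ level by 3.72 (adjusted p = 0.0922). This call was lost when control 1 or 3, or NH4+ array 1 or 2, was dropped (highest adjusted p 0.188). All its water signals were under 100, and with these set to 100 the rise was 2.14 (adjusted p = 0.000285). That floor made the water values equal, so the smaller adjusted p does not make the call stronger. Another fell from 6.81, 6.86 and 7.04 to 3.70, 3.61 and 3.61 (-3.27, SE 0.21, adjusted p = 0.000357), and its call held whichever array was left out, although its treated values are under a signal of 100, and with that floor its change was -0.26 (adjusted p = 0.148).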
